A study of Mus musculus with 15 samples.

Results

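The immediate early and heat shock genes described here are a list of 42 mouse genes, 28 immediate early genes and 14 heat shock genes, taken by gene symbol. Of these, 40 had a probe set that carries their symbol alone, all 28 immediate early genes and 12 of the 14 heat shock genes, among 19938 genes measured in the study. Hspa1b was read only by a probe set that it shares with Hspa1a and was not used here, and Hsp90ab1 was not analysed here. The study measured RNA of large-diameter neurons of the mouse dorsal root ganglia (DRG), the clusters of sensory cell bodies beside the spinal cord, on 15 Affymetrix whole-transcript arrays, in 5 groups of 3 biological replicates. It asked about mechanosensitive molecules of myelinated afferents after inflammation. All mice were C57BL/6 that express green fluorescent protein (GFP) from the promoter of CGRP, the calcitonin gene-related peptide found in many neurons that sense pain, and in all of them the lumbar 2 to 5 ganglia were dissociated with enzymes and by hand. Cells over 26.9 µm were then sorted by GFP and by wheat germ agglutinin, a retrograde tracer given 5 days before death into the gastrocnemius muscle or the saphenous nerve.

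The CFA paw and saline paw groups held CGRP-positive neurons that project to skin, from mice given complete Freund's adjuvant (CFA), an emulsion with killed mycobacteria that inflames tissue, or saline into the paw. The CFA muscle, acid muscle and saline muscle groups held CGRP-negative neurons that project to muscle, from mice given CFA, acid or saline into the muscle. Saline served as the control at each site. The target tissue, the site of the injection, the site of the tracer and the CGRP status change together between the paw and muscle groups, so their effects cannot be told apart. The sources used here do not give the ages of the mice, the time from injection to tissue collection or whether mice were pooled for an array.

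Immediate early genes are transcribed within minutes of a stimulus, without new protein synthesis, when calcium, cyclic AMP and mitogen-activated protein (MAP) kinase signals reach factors already bound or ready to bind at their promoters. Their products are mostly transcription factors, such as the Fos and Jun subunits of the dimer AP-1, and feedback regulators that end the signal, and in sensory neurons they are used as marks of recent activity or stress. Heat shock genes encode chaperones that fold or refold proteins and are driven, on stress, by the heat shock factor Hsf1 bound to repeated GAA units. Enzymatic dissociation of tissue is known to induce members of both classes, and every array here went through it.

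Values are log2 expression per probe set, so a difference of 1 is a 2-fold change in signal, and levels of different genes are not set against each other. A difference is called where limma, fitted on all 19938 genes and all 15 arrays, gave a two-sided p under 0.05 after Benjamini-Hochberg adjustment. Signal was taken as dim at or under 2.44, which 95% of 1194 genes for olfactory and vomeronasal receptors did not exceed in mean level. In every group 38 of the 40 members had a mean above it. Npas4 and Nr4a3 were under it in 4 of the 5 groups. In bulk samples, fewer cells of a type and less RNA per cell cannot be told apart.

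The arrays differed in the spread of their values. The SD of log2 expression over all genes was 1.66 to 1.74 on CFA paw arrays, and 1.42, 1.80 and 1.76 on saline paw replicates 1, 2 and 3, against 1.28 to 1.55 over the 9 arrays of muscle neurons. The first saline paw replicate stood apart, and limma's array weights ran from 0.148 for it to 7.18 for saline paw replicate 3. All 14 sensory neuron markers were above the dim limit on every array, with a mean level of 7.99 to 9.08 on paw arrays, against 7.01 to 8.11 on muscle arrays, and 12 were called higher in paw. All 7 measured markers of peptidergic neurons, the class that holds CGRP, were called higher in paw as well (5.52 to 7.13 on paw arrays, against 4.24 to 4.85 on muscle arrays). Schwann cell and myelin markers averaged 4.51 to 4.65 on paw arrays, against 4.55 to 5.98 on muscle arrays, and 5 of 11 were called lower in paw and S100b higher. Satellite glia markers averaged 5.52 to 6.26 on paw arrays, against 5.57 to 6.22 on muscle arrays. Macrophage markers averaged 2.06 to 2.37 on paw arrays, against 2.24 to 2.48 on muscle arrays, with 10 of 17 under the dim limit in all groups. Endothelial and mural markers averaged 2.79 to 3.22 on paw arrays, against 3.16 to 3.92 on muscle arrays, and fibroblast markers 3.17 to 3.56, against 3.44 to 4.15. The part of array spread or of other cells in the differences below was not tested. Some values are also given with array SD as a covariate. Array SD was higher on every paw array except saline paw replicate 1 than on every muscle array. That setting therefore cannot separate array spread from the difference between skin and muscle neurons.

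Skin and muscle neurons differed in 8 of the 40 members when the paw-minus-muscle difference was averaged over the CFA and saline groups. Bag3, Hspa8, Hspb8, Egr1, Per1, Dusp1 and Jund were called higher in the CGRP-positive skin neurons and Hspa1a lower, with folds of 1.29 to 2.94. Over all genes 14.7% were called in this comparison, 11.6% higher and 3.12% lower, beside 7 of 40 members called higher and 1 lower. The median difference was 0.14 over the members, 0.04 over the 28 immediate early genes and 0.32 over the 12 heat shock genes, beside -0.04 over all genes. The sign of the member median depended on the scaling of the arrays, since it was -0.17 after quantile normalization, -0.19 after cyclic loess and -0.04 with array SD as a covariate. Of the 40 members, 20 had a difference of the other sign under at least 1 of these 3 settings, Jund being the single called gene among them. Bag3 and Hspa1a were called under all 3.

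**Figure D1:**
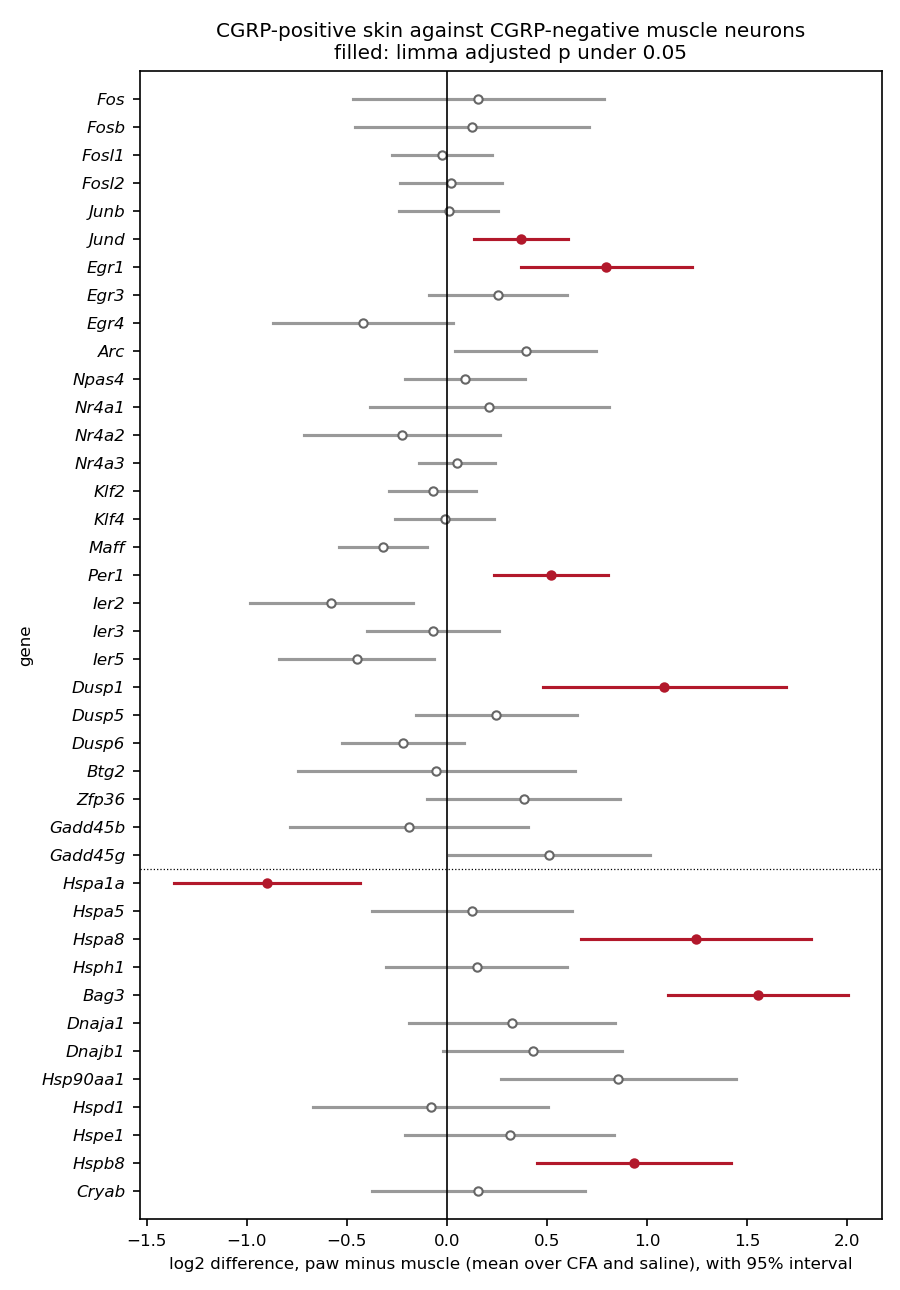
Each point is the paw-minus-muscle difference of 1 gene in log2 expression, averaged over the CFA and saline groups, with its 95% interval from limma (n = 3 arrays a group), and filled points passed the adjusted threshold. Bag3 lies farthest to the right at 1.55 and Hspa1a farthest to the left at -0.90, and the immediate early genes lie on both sides of 0.

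Among the co-chaperones, Bag3, which hands misfolded proteins from Hsp70 to autophagy, had the largest difference of all members. Its log2 level was 8.15, 7.998 and 7.90 on CFA paw arrays and 6.99, 8.13 and 8.32 on saline paw arrays, against 6.42, 6.31 and 6.35 on CFA muscle arrays, 6.02, 5.98 and 6.90 on acid muscle arrays and 6.58, 6.34 and 6.16 on saline muscle arrays. Every paw array was above every muscle array, the lowest paw value being that of saline paw replicate 1. The difference was 1.55 (SE 0.211, 95% interval 1.10 to 2.01, adjusted p = 0.000316 by limma), or 2.94-fold. It was called within CFA mice (1.65, adjusted p = 0.00503) and within saline mice (1.46, adjusted p = 0.0247). The averaged difference was 0.97 after quantile normalization and 0.80 with array SD as a covariate, and called under both. Within CFA mice and within saline mice Bag3 was not called higher with array SD as a covariate.

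Hspb8, a small heat shock protein that works in a complex with Bag3, was also higher in skin neurons. It measured 7.75, 7.61 and 7.33 on CFA paw arrays and 6.40, 7.93 and 7.78 on saline paw arrays, against 6.39, 6.64 and 6.51 on CFA muscle arrays, 6.53, 5.94 and 6.73 on acid muscle arrays and 6.59, 6.77 and 6.28 on saline muscle arrays. Saline paw replicate 1 lay among the muscle arrays, and the other 5 paw arrays lay above all of them. The difference was 0.94 (SE 0.227, adjusted p = 0.0131 by limma), but 0.36 after quantile normalization and 0.05 with array SD as a covariate, neither called, and 0.34 after cyclic loess, which was. Cryab, the other small heat shock protein on the list, differed by 0.16 (95% interval -0.37 to 0.69), and by -0.22 after quantile normalization and -0.57 with array SD as a covariate.

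The Hsp70 genes Hspa8 and Hspa1a were called in opposite directions. Hspa8, the constitutive cytosolic Hsp70, measured 11.40, 11.26 and 11.01 on CFA paw arrays and 10.69, 11.43 and 11.51 on saline paw arrays, against 9.84, 10.28 and 10.07 on CFA muscle arrays, 10.15, 9.26 and 11.28 on acid muscle arrays and 10.25, 9.90 and 9.51 on saline muscle arrays. Of the muscle arrays, acid muscle replicate 3 alone reached the paw values. The difference was 1.25 (SE 0.269, adjusted p = 0.00682 by limma), and the other 2 probe sets of the gene gave 1.14 and 1.07. After quantile normalization it was 0.12, after cyclic loess 0.09 and with array SD as a covariate 0.30, and none of these was called.

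Hspa1a, the Hsp70 that is induced by heat and other stress, was the single member called lower in skin neurons. It measured 5.41, 5.32 and 5.83 on CFA paw arrays and 5.28, 5.18 and 5.38 on saline paw arrays, against 6.43, 6.20 and 6.64 on CFA muscle arrays, 6.68, 4.98 and 5.92 on acid muscle arrays and 6.42, 6.18 and 5.93 on saline muscle arrays. All paw arrays were below all CFA muscle and saline muscle arrays, while acid muscle replicate 2 had the lowest value of the 15. The difference was -0.90 (SE 0.217, 95% interval -1.37 to -0.44, adjusted p = 0.0129 by limma). It was -1.30 after quantile normalization, -1.32 after cyclic loess and -1.19 with array SD as a covariate, and called under each. Hspa1b is a nearly identical neighbour of Hspa1a, so signal of the pair may be mixed on this probe set.

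The remaining chaperones were not called. Hsp90aa1, the stress-inducible cytosolic Hsp90, measured 10.68, 10.59 and 10.12 on CFA paw arrays and 9.50, 10.71 and 10.71 on saline paw arrays, against 9.23, 9.90 and 9.73 on CFA muscle arrays, 9.69, 8.62 and 9.85 on acid muscle arrays and 9.94, 9.62 and 8.75 on saline muscle arrays. Its difference of 0.86 missed the threshold (SE 0.275, adjusted p = 0.0501 by limma), was 1.06 and called without saline paw replicate 1, and was -0.21 with array SD as a covariate. The Hsp70 partners Dnajb1 and Dnaja1 differed by 0.43 (95% interval -0.02 to 0.88) and 0.33 (-0.19 to 0.84), and Hsph1, an Hsp110 that recharges Hsp70, by 0.15 (-0.30 to 0.60). Hspa5, the Hsp70 of the endoplasmic reticulum, differed by 0.12 (-0.38 to 0.63), and the mitochondrial chaperonin Hspd1 and its partner Hspe1 by -0.08 (-0.67 to 0.50) and 0.31 (-0.21 to 0.83). The other probe set of Hspd1, which has a lower mean, gave 0.07, and that of Dnaja1, also with a lower mean, gave 0.21. The direction and the calls of these genes depended on the setting. With array SD as a covariate all 6 were negative, from -0.18 for Dnajb1 to -1.13 for Hspd1, and Hspd1, Hsph1 (-0.62) and Dnaja1 (-0.60) were called lower. Dnaja1 (-0.39) and Hspa5 (-0.45) were also called lower after cyclic loess. Without saline paw replicate 1 all 6 were positive, and Dnaja1 (0.54, adjusted p = 0.0443 by limma) and Dnajb1 (0.58, adjusted p = 0.0263) were called higher.

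The promoter windows of the heat shock genes are shown for the 3 called members whose RefSeq window (build GRCm38.p6, 250 bases before to 50 after the annotated start) held a heat shock element, with Dusp1 as the called immediate early gene whose window held a cyclic AMP response element. Capitals mark the element.
Bag3 (chr7:128523333-128523632, plus strand): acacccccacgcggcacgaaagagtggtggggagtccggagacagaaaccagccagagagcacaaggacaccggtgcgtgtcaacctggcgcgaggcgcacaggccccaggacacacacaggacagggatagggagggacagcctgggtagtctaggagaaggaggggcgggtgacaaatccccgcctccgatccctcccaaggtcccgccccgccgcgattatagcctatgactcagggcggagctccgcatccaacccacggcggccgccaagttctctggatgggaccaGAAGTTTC
Hspb8 (chr5:116422815-116423114, minus strand): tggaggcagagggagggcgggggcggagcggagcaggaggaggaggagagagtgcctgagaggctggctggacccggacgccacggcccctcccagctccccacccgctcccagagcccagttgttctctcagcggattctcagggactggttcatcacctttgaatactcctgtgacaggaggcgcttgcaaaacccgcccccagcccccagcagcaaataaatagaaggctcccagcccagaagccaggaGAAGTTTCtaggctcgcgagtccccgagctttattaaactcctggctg
Hspa1a (chr17:34972107-34972406, minus strand): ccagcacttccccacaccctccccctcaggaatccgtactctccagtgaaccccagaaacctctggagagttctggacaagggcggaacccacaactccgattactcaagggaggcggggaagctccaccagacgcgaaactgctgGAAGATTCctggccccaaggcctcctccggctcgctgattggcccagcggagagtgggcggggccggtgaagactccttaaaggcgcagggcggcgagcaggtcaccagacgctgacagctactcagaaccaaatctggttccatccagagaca
Dusp1 (chr17:26508423-26508722, minus strand): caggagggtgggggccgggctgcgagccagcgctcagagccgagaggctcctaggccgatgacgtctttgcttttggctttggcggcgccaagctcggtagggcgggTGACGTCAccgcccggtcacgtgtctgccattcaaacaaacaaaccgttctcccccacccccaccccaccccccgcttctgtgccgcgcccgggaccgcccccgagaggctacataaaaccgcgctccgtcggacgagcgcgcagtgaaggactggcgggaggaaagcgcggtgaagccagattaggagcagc
The letters of the element were GAAGTTTC in both Bag3 and Hspb8, and GAAGATTC in Hspa1a. The window of Fosl2, which was not called, also held GAAGTTTC. Whether the letters go with the direction of a difference was not tested. The first base of the match lay 42 bases after the start in Bag3 and 2 bases after it in Hspb8, and 104 bases before it in Hspa1a. The cyclic AMP response element of Dusp1, TGACGTCA, began 143 bases before the start.

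Of the 40 members, 32 had a window in the RefSeq table, 23 immediate early and 9 heat shock genes. A heat shock element of 2 units (GAANNTTC or TTCNNGAA, either strand) was found in 7 of the 9 heat shock genes, Bag3, Dnaja1, Hspa1a, Hspb8, Hspd1, Hspe1 and Hsph1, and in 1 of the 23 immediate early genes, Fosl2, beside 17.0% of the 27025 genes of the table. In Hspd1, Hspe1 and Hsph1 matches overlapped to form 3 units in a row, which 0.662% of all genes held. Hspd1 and Hspe1 lie head to head, and their windows share the same element. The full cyclic AMP response element was found in Btg2, Dusp1 and Maff, beside 2.03% of genes. Its shorter core TGACG, which lies within the full element, was found in 15 of the 23 immediate early and 5 of the 9 heat shock genes, beside 23.0% of genes. The CArG box of the serum response element was found in Dusp5 and Zfp36, beside 1.81% of genes, and TATAAA in Fos, Gadd45b, Gadd45g, Junb and Nr4a2, beside 15.7%. A gene counted once where any of its windows held the letters. A match describes the letters of a window and shows no binding.

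Among the immediate early genes, Egr1, a zinc finger transcription factor of the first wave of the response, was higher in skin neurons. It measured 7.22, 7.40 and 7.66 on CFA paw arrays and 6.28, 7.21 and 7.05 on saline paw arrays, against 6.53, 5.79 and 6.36 on CFA muscle arrays, 6.66, 5.90 and 6.79 on acid muscle arrays and 6.66, 6.56 and 6.13 on saline muscle arrays. Every paw array except saline paw replicate 1 was above every muscle array. The difference was 0.80 (SE 0.200, adjusted p = 0.0158 by limma), and 0.24 after quantile normalization and with array SD as a covariate, neither called. The other genes of this role were not called. Egr3 differed by 0.26 (95% interval -0.09 to 0.60), Egr4 by -0.42 (-0.87 to 0.03; -0.59 and called without saline paw replicate 1, but 0.12 with array SD as a covariate) and Arc, whose protein acts at synapses, by 0.39 (0.04 to 0.75). Npas4, an activity-dependent factor of neurons, was dim and differed by 0.09 (-0.21 to 0.39).

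Dusp1, a phosphatase that switches off MAP kinases, was 8.20, 7.81 and 7.67 on CFA paw arrays and 6.73, 7.97 and 8.32 on saline paw arrays, against 7.13, 6.57 and 6.83 on CFA muscle arrays, 7.23, 5.78 and 6.16 on acid muscle arrays and 7.01, 6.54 and 6.09 on saline muscle arrays. Saline paw replicate 1 overlapped the muscle arrays. The difference was 1.09 (SE 0.284, adjusted p = 0.0197 by limma). It was not called after quantile normalization (0.50), after cyclic loess (0.46), with array SD as a covariate (0.28), or without saline muscle replicate 3, CFA paw replicate 1 or saline paw replicate 2 or 3 (0.92 to 1.01). Among the other feedback and growth arrest genes, Ier2 and Ier5, small proteins of the first wave, differed by -0.58 (adjusted p = 0.0555) and -0.45 (adjusted p = 0.108), and both passed without saline paw replicate 1 (-0.58 and -0.62), while Ier5 was 0.15 with array SD as a covariate. Zfp36, which destabilises the messengers of cytokines, differed by 0.38 (95% interval -0.10 to 0.87), but by -0.14 after quantile normalization and -0.31 with array SD as a covariate. The other 6 genes of this role, Gadd45g, Dusp5, Dusp6, Ier3, Gadd45b and Btg2, lay between -0.22 and 0.51 and were not called.

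Per1, a repressor of the circadian clock that cyclic AMP signals also induce, was 4.62, 4.26 and 4.82 on CFA paw arrays and 3.81, 4.33 and 4.29 on saline paw arrays, against 3.88, 3.58 and 3.93 on CFA muscle arrays, 4.11, 3.89 and 4.36 on acid muscle arrays and 3.85, 3.75 and 4.03 on saline muscle arrays. CFA paw replicates 1 and 3 were above all other arrays, and the other 4 paw arrays overlapped the muscle arrays. The difference was 0.52 (SE 0.134, adjusted p = 0.0181 by limma). It was 0.39 after quantile normalization and 0.27 with array SD as a covariate, neither called, and 0.42 and called after cyclic loess. The call was lost without saline paw replicate 2 or 3 (0.47 and 0.48). Maff, a small Maf factor, differed by -0.32 (adjusted p = 0.0522) and by -0.35, with a call, without saline paw replicate 1, and the factors Klf2 and Klf4 by -0.07 (95% interval -0.29 to 0.15) and -0.01 (-0.26 to 0.24).

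Of the AP-1 subunits, Jund, the Jun family member with steady expression, was the one called. It measured 6.09, 6.11 and 6.33 on CFA paw arrays and 5.94, 6.12 and 6.26 on saline paw arrays, against 5.75, 5.54 and 5.50 on CFA muscle arrays, 6.01, 5.50 and 5.98 on acid muscle arrays and 5.85, 5.94 and 6.06 on saline muscle arrays. The saline paw values overlapped those of acid and saline muscle, and the CFA muscle arrays were the lowest group. The difference of 0.37 (SE 0.110, adjusted p = 0.0362 by limma) turned to -0.074 after quantile normalization and -0.064 after cyclic loess. It was also lost without any one of 9 of the 12 arrays compared (0.33 to 0.39).

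Fos, the classic marker of neuronal activity, measured 6.97, 7.11 and 6.83 on CFA paw arrays and 5.82, 7.02 and 7.05 on saline paw arrays, against 6.98, 6.34 and 6.28 on CFA muscle arrays, 7.22, 5.74 and 7.13 on acid muscle arrays and 7.31, 6.87 and 6.08 on saline muscle arrays. The groups overlapped, and the paw-minus-muscle difference was 0.16 (95% interval -0.47 to 0.78), but -0.39 after quantile normalization, -0.41 after cyclic loess and -0.80 with array SD as a covariate, none called. Fosb gave 0.13 (-0.46 to 0.71), and Fosl1, Fosl2 and Junb lay between -0.02 and 0.02. Fosl1 had group means of 2.50 to 2.69, close above the dim limit. The nuclear receptors Nr4a1 and Nr4a2, transcription factors that act without a known hormone, differed by 0.21 (-0.39 to 0.81) and -0.22 (-0.71 to 0.27), and the dim Nr4a3 by 0.05 (-0.14 to 0.24). Fosb and Nr4a1 turned with the scaling in the same way, to -0.36 and -0.30 after quantile normalization and -0.52 and -0.66 with array SD as a covariate. These intervals do not show that the genes were alike in the 2 kinds of neuron.

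**Figure D2:**
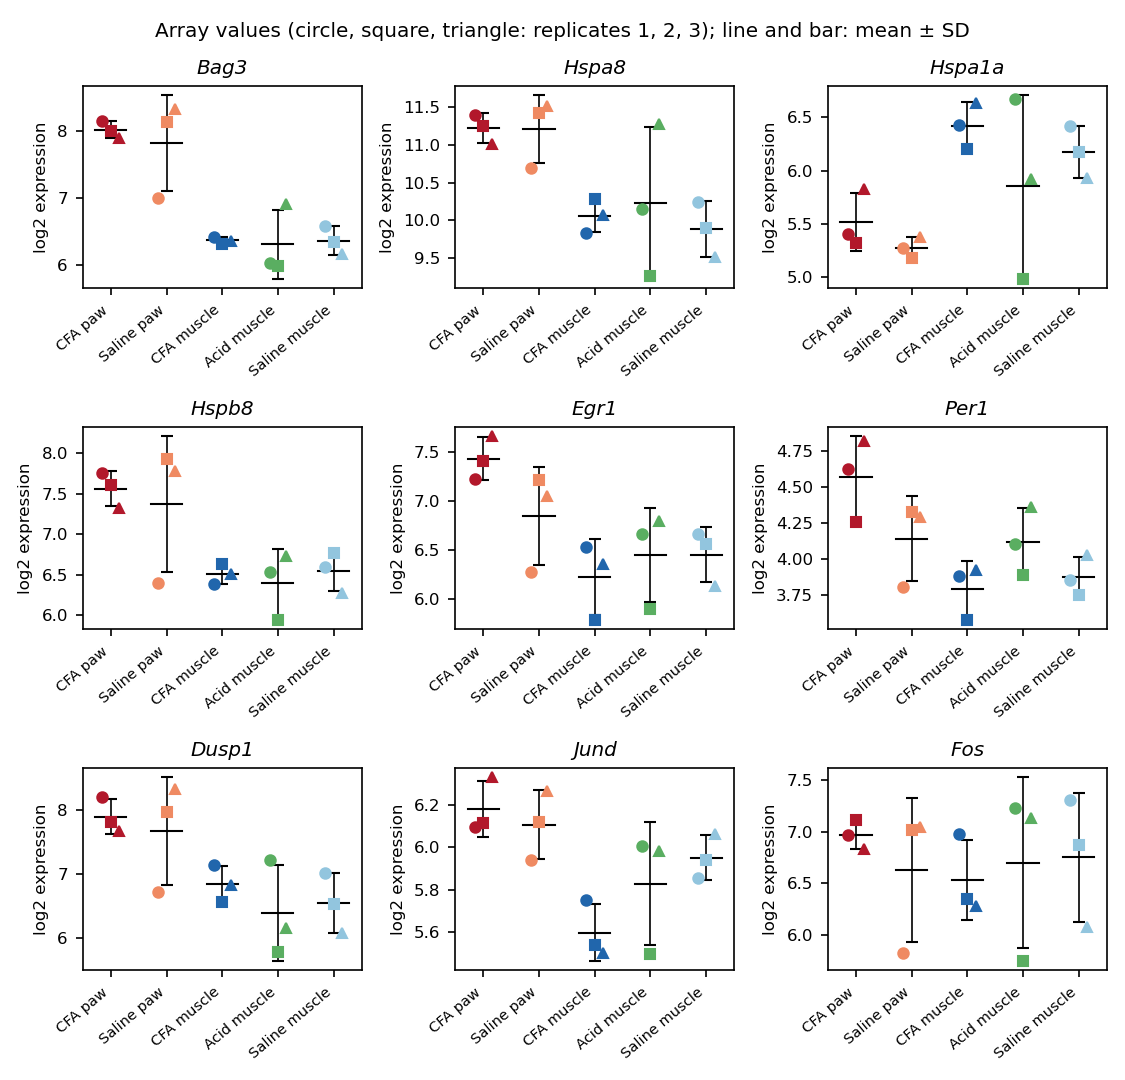
Log2 expression of single genes on each array, by group, with the mean and SD as line and bar (n = 3 arrays) and a symbol for each replicate number. Bag3 separates all paw from all muscle arrays, and for several genes saline paw replicate 1 (circle) lies far below the other 2 saline paw arrays.

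Within CFA mice the skin-minus-muscle comparison called 4 of 40 members, all higher in skin neurons, beside 6.41% of all genes, 5.75% higher and 0.667% lower. They were Bag3, Egr1 (1.20, SE 0.282, adjusted p = 0.0207), Per1 (0.77, SE 0.189, adjusted p = 0.0251) and Jund (0.58, SE 0.155, adjusted p = 0.0380), all by limma. Leaving out 1 array ended the call of Egr1 in 3 cases, without CFA muscle replicate 2 or CFA paw replicate 2 or 3 (0.98 to 1.21). It ended that of Per1 in 4, without CFA muscle replicate 1 or 2 or CFA paw replicate 1 or 3 (0.65 to 0.82), and that of Jund without any of the 6 arrays compared (0.51 to 0.66). Within saline mice Bag3 was the 1 member called, beside 2.04% of all genes, 1.87% higher and 0.171% lower. Hspa8 differed there by 1.33 (adjusted p = 0.0914) and by 1.59, with a call, without saline paw replicate 1. Without saline muscle replicate 2 or 3 or saline paw replicate 2 or 3 the Bag3 difference was 1.20 to 1.44 and no member was called. With array SD as a covariate, 0 members were called higher and 1 lower within CFA mice, beside 232 and 212 of all genes. The member counts were the same within saline mice, beside 164 and 206 of all genes.

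No treatment changed a member past the threshold. CFA in the paw against saline called 0 of 40 members and 0% of 19938 genes by limma, with 1 member and 1.21% of genes under an unadjusted p of 0.05. The gene was Per1, which measured 4.62, 4.26 and 4.82 on CFA paw arrays, against 3.81, 4.33 and 4.29 on saline paw arrays, and differed by 0.42 (SE 0.189, 95% interval 0.02 to 0.83, unadjusted p = 0.0409, adjusted p = 1). CFA paw replicate 2 lay below 2 of the saline paw arrays. Egr1 differed by 0.58 (95% interval -0.02 to 1.19) and all 3 CFA paw arrays were above all 3 saline paw arrays, but without saline paw replicate 1 the difference was 0.30. Klf4, a factor that can promote or restrain growth, measured 3.78, 3.92 and 3.78 on CFA paw arrays, against 3.78, 3.78 and 3.23 on saline paw arrays, a difference of 0.23 (-0.12 to 0.58) that rests on saline paw replicate 3, since it was 0.05 without it. The median was 0.12 over the members, with 28 of 40 positive, and 0.19 over the heat shock genes, with 10 of 12 positive, beside -0.01 over all genes. The member median turned to -0.02 without saline paw replicate 1 and to -0.08 with array weights. The positive heat shock median rests on saline paw replicate 1, where 11 of the 12 heat shock genes were lowest in their group. Of all genes above the dim limit 52.1% were lowest there. The median deviation of the heat shock genes from the gene means was -0.57 on that array, against 0.65 and 0.45 on saline paw replicates 2 and 3. On CFA paw replicates 1, 2 and 3 it was 0.40, 0.45 and 0.11.

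CFA in the muscle against saline called 0 of 40 members and 0% of genes by limma, with 1 member and 2.6% of genes under an unadjusted p of 0.05. The gene was Jund, at 5.75, 5.54 and 5.50 on CFA muscle arrays, against 5.85, 5.94 and 6.06 on saline muscle arrays. The groups did not overlap, and the difference was -0.35 (95% interval -0.69 to -0.02, unadjusted p = 0.0382, adjusted p = 1). Dusp5, a phosphatase specific to the kinase ERK, measured 4.21, 4.35 and 4.58 on CFA muscle arrays, against 4.89, 4.34 and 5.46 on saline muscle arrays, a difference of -0.51 (-1.08 to 0.05) with overlap. Maff measured 3.39, 3.40 and 3.38 on CFA muscle arrays, against 3.02, 3.18 and 3.23 on saline muscle arrays, a difference of 0.25 (-0.06 to 0.56) without overlap. The median was 0.02 over the members, 0.00 over the immediate early genes and 0.19 over the heat shock genes, beside -0.01 over all genes. The member median ran from -0.05 without saline muscle replicate 3 to 0.06 without CFA muscle replicate 3. Of the 12 heat shock genes, 11 were lowest in their group on saline muscle replicate 3 and 8 on CFA muscle replicate 1. The shares of all genes above the dim limit were 40.5% and 47.0%.

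Acid in the muscle against saline called 0 of 40 members and 0% of genes by limma, with 2 members and 2.85% of genes under an unadjusted p of 0.05, both of the Nr4a family. Nr4a3 measured 2.62, 2.53 and 2.78 on acid muscle arrays, against 2.25, 2.30 and 2.14 on saline muscle arrays, with no overlap. The difference was 0.42 (95% interval 0.15 to 0.68, unadjusted p = 0.00510, adjusted p = 1), and the acid group was the only one of the 5 with a mean above the dim limit. Nr4a2 measured 5.59, 4.35 and 4.79 on acid muscle arrays, against 4.56, 4.07 and 3.92 on saline muscle arrays, a difference of 0.72 (0.03 to 1.42) with overlap, and 0.38 to 1.00 when single arrays were left out. Cryab measured 6.16, 5.12 and 6.37 on acid muscle arrays, against 5.59, 5.22 and 4.76 on saline muscle arrays, a difference of 0.69 (-0.06 to 1.45). Fosb measured 7.23, 6.03 and 6.43 on acid muscle arrays, against 6.58, 5.66 and 5.75 on saline muscle arrays, and overlapped, and Fos differed by -0.05 (-0.94 to 0.83). The heat shock genes had a median of -0.08 with 4 of 12 positive, and the members together 0.04, beside 0.02 over all genes. The member median was 0.15 without acid muscle replicate 2, on which all 12 heat shock genes were lowest in their group, and -0.07 and -0.06 without replicates 1 and 3 of that group. Of all genes above the dim limit 42.7% were lowest on acid muscle replicate 2.

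CFA muscle against acid muscle called 0 of 40 members and 0% of genes by limma, with 2 members and 3.14% of genes under an unadjusted p of 0.05. It shares its arrays with the comparisons against saline muscle, which themselves share the saline muscle arrays. Nr4a3 was 2.30, 2.30 and 2.12 on CFA muscle arrays, against 2.62, 2.53 and 2.78 on acid muscle arrays, a difference of -0.40 (-0.67 to -0.14). Maff was 3.39, 3.40 and 3.38 on CFA muscle arrays, against 3.11, 3.31 and 2.79 on acid muscle arrays, a difference of 0.32 (0.01 to 0.63), and Dusp5 was 4.21, 4.35 and 4.58 on CFA muscle arrays, against 4.59, 4.79 and 5.45 on acid muscle arrays, a difference of -0.56 (-1.13 to 0.00). The member median was -0.10 and that of the immediate early genes -0.20, with 21 of 28 negative, beside -0.03 over all genes. The member median stayed negative when single arrays were left out, from -0.16 without acid muscle replicate 2 to -0.03 without replicate 1 or 3 of that group.

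Whether CFA acted differently at the 2 sites was tested as the CFA effect in muscle minus that in paw. It called 0 of 40 members and 0% of genes by limma, with 0 members and 1.63% of genes under an unadjusted p of 0.05. Egr1 had the smallest p, with a CFA effect of -0.23 in muscle, 0.58 in paw and a difference of -0.81 (95% interval -1.66 to 0.05, unadjusted p = 0.0623, adjusted p = 1). Jund (-0.43, interval -0.90 to 0.04) and Dusp5 (-0.71, interval -1.52 to 0.09) came next. The member median was 0.01, beside 0.00 over all genes, and ran from -0.15 without saline muscle replicate 3 to 0.06 without saline paw replicate 1.

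**Figure D3:**
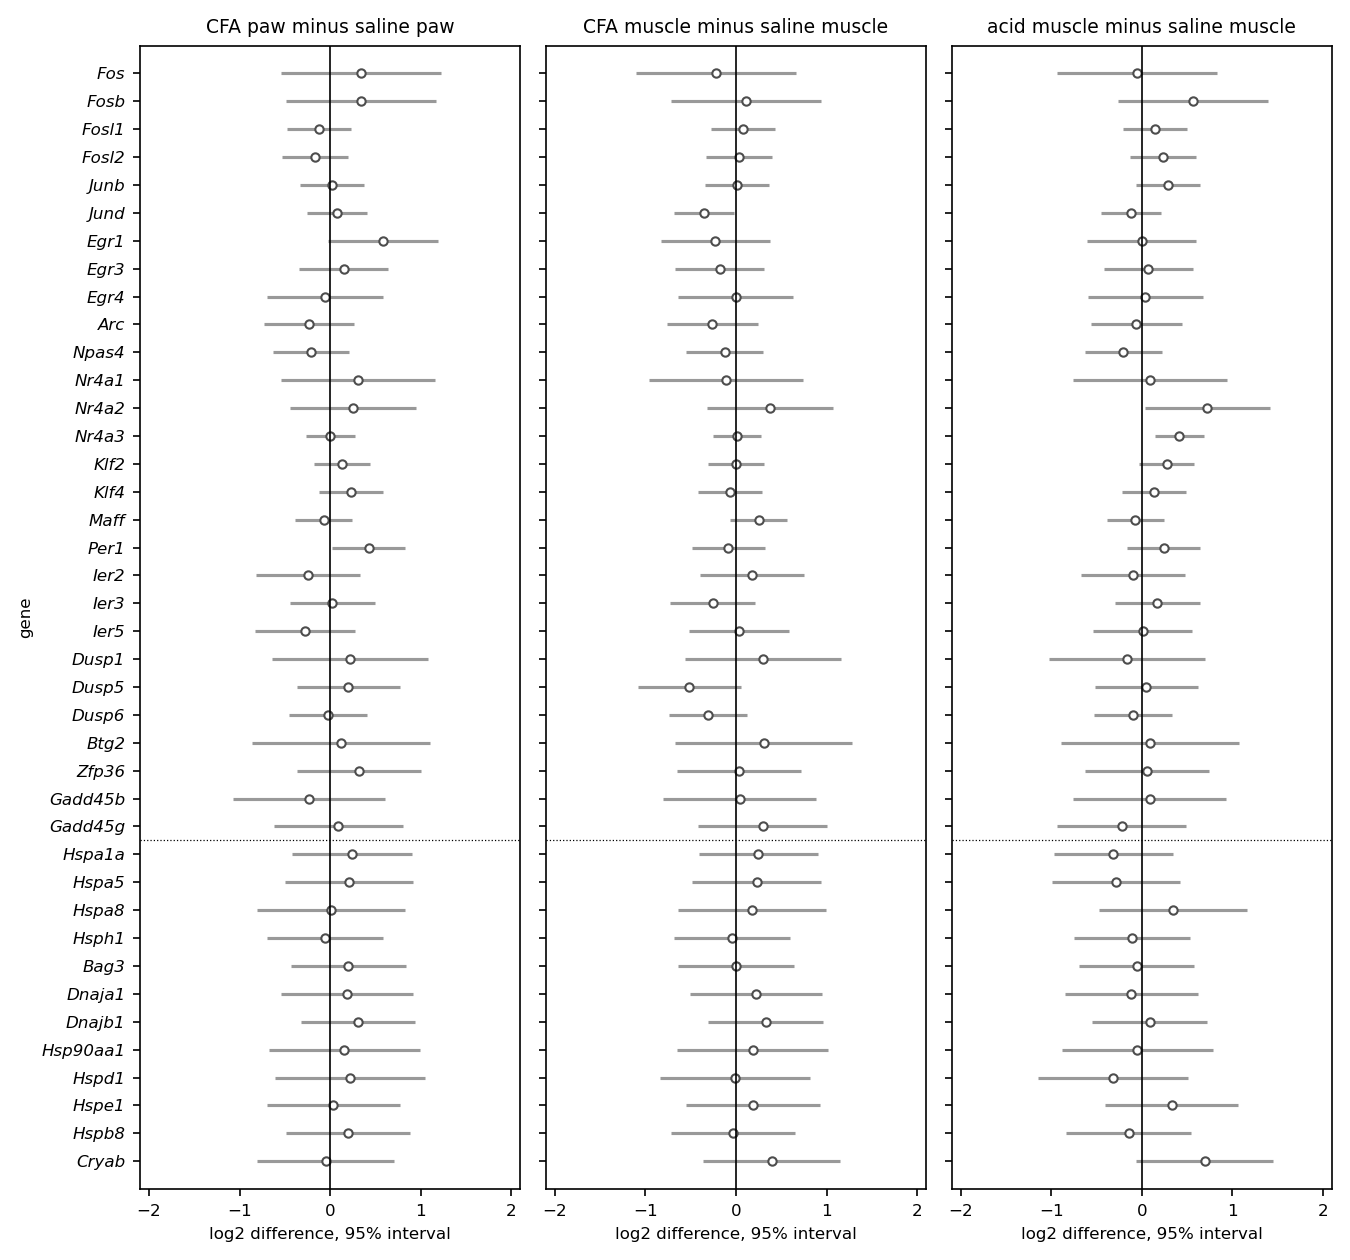
Log2 differences with 95% intervals from limma for each gene in the treatment comparisons, 3 arrays a group. No gene passed the adjusted threshold, and most intervals cross 0, Nr4a3 in acid muscle minus saline muscle (0.42) being one that does not.

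Most members varied more between replicate arrays than the median gene, which was not matched to them in level. The SD within groups, pooled over the 5 groups, had a median of 0.328 over the immediate early genes and 0.472 over the heat shock genes, beside 0.232 over all genes and 0.274 over genes above the dim limit. It was above the median gene's for 32 of the 40 members, including all 12 heat shock genes. Btg2, an antiproliferative protein that speeds the decay of messengers, had the largest, 0.656, above 99.4% of genes. It measured 4.27, 4.20 and 4.18 on CFA paw arrays and 3.90, 4.20 and 4.20 on saline paw arrays, against 4.79, 4.10 and 4.20 on CFA muscle arrays, 5.43, 3.11 and 3.91 on acid muscle arrays and 4.81, 4.08 and 3.28 on saline muscle arrays, so that acid muscle alone covered the range of all groups. Fos (0.590), Dusp1 (0.571), Nr4a1 (0.562) and Gadd45b (0.558) followed.

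Nr4a1 measured 6.74, 6.72 and 6.54 on CFA paw arrays and 5.66, 6.77 and 6.67 on saline paw arrays, against 6.63, 6.00 and 6.13 on CFA muscle arrays, 7.17, 5.43 and 6.74 on acid muscle arrays and 6.70, 6.59 and 5.78 on saline muscle arrays. Gadd45b, a stress sensor of growth arrest and DNA demethylation, measured 4.82, 4.79 and 4.76 on CFA paw arrays and 4.52, 5.16 and 5.39 on saline paw arrays, against 5.26, 5.38 and 4.71 on CFA muscle arrays, 6.16, 4.95 and 4.37 on acid muscle arrays and 5.31, 5.55 and 4.37 on saline muscle arrays. In the acid muscle group Fos, Nr4a1, Dusp1 and Btg2 were each lowest on replicate 2, and Nr4a1, Fos, Dusp1, Btg2 and Gadd45b were each highest on replicate 1. For each of these 5 genes the CFA paw arrays lay closer together than those of any other group.

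**Figure D4:**
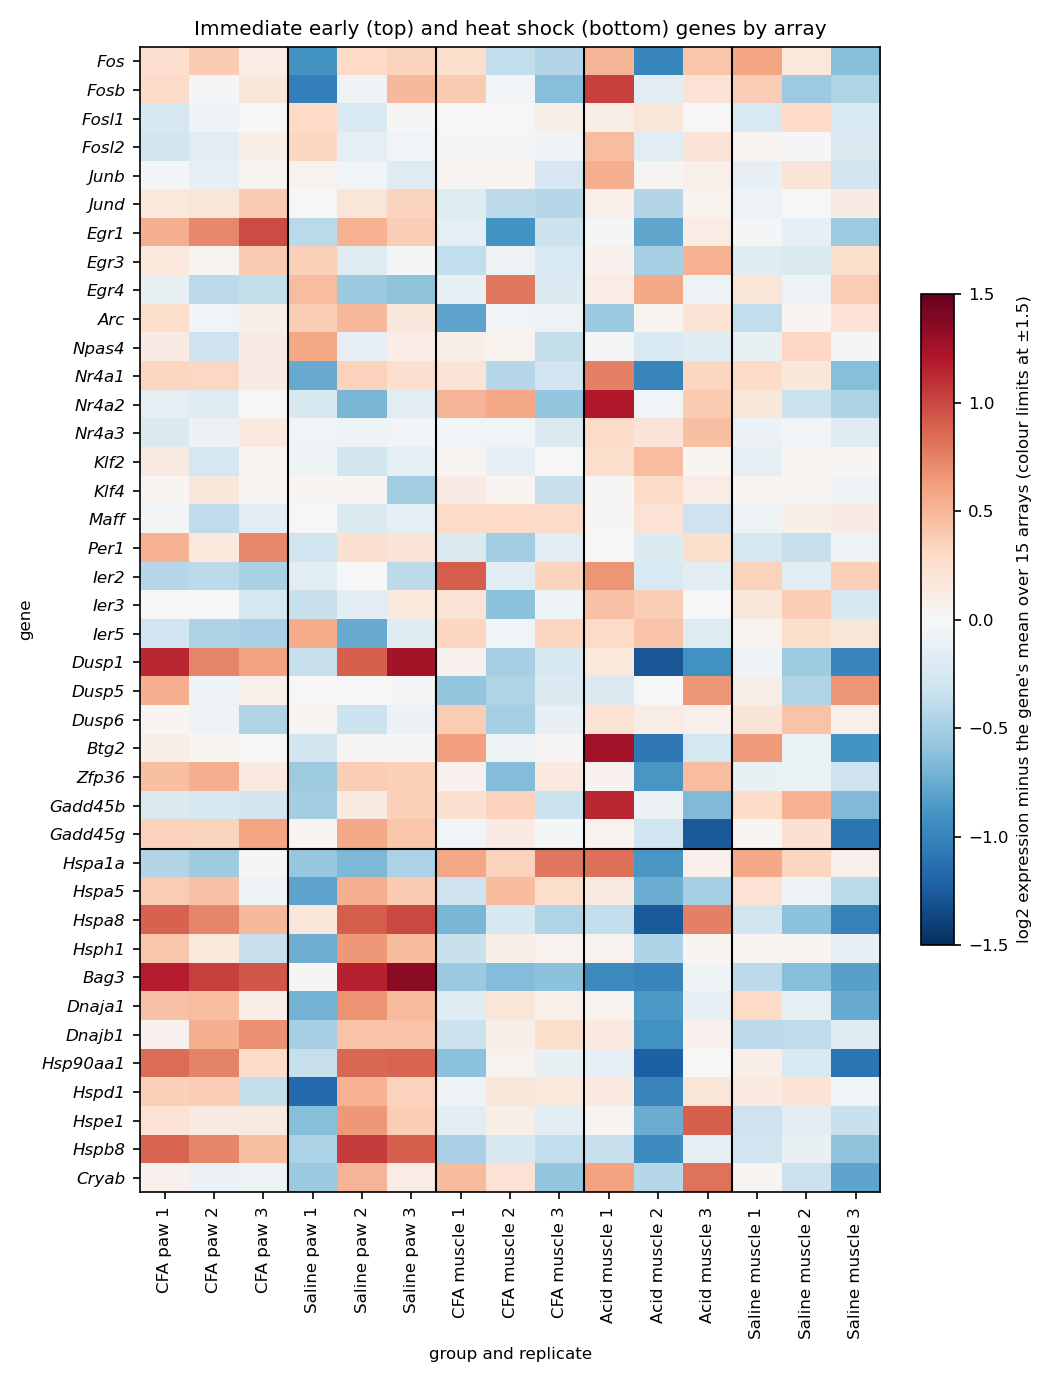
Log2 expression of each gene on each array minus the gene's mean over the 15 arrays, immediate early genes above and heat shock genes below, with colours held at ±1.5. The heat shock block is low in nearly every row on saline paw replicate 1, acid muscle replicate 2 and saline muscle replicate 3.

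The heat shock genes moved together from array to array. Whether other genes of like level did the same was not tested. Their median deviation from the gene means was 0.40, 0.45 and 0.11 on CFA paw replicates 1, 2 and 3 and -0.57, 0.65 and 0.45 on those of saline paw. It was -0.32, 0.09 and -0.03 on those of CFA muscle, 0.05, -0.89 and 0.04 on those of acid muscle and 0.04, -0.15 and -0.50 on those of saline muscle. Of the 12 heat shock genes, 11 were lowest in their group on saline paw replicate 1, 12 on acid muscle replicate 2 and 11 on saline muscle replicate 3, beside 52.1%, 42.7% and 40.5% of all genes above the dim limit. On CFA paw replicate 3 and CFA muscle replicate 1 it was 9 and 8, beside 40.6% and 47.0%. In each of the 5 groups the array with the lowest median was the one with the lowest SD over all genes. For the immediate early genes the median deviation stayed between -0.21 and 0.19, and no array was lowest in its group for more than 16 of the 28. That count was reached on acid muscle replicate 2 and saline muscle replicate 3, beside the 42.7% and 40.5% of all genes above the dim limit. The median does not show single genes. Fos, Nr4a1, Dusp1 and Zfp36 were each lowest in their group on saline paw replicate 1 and on acid muscle replicate 2. Of the 28, 12 were lowest on saline paw replicate 1, beside 52.1% of all genes above the dim limit. On acid muscle replicate 2 it was 16, beside 42.7%. On those arrays 13 and 6 of the 28 were highest in their group.

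**Figure D5:**
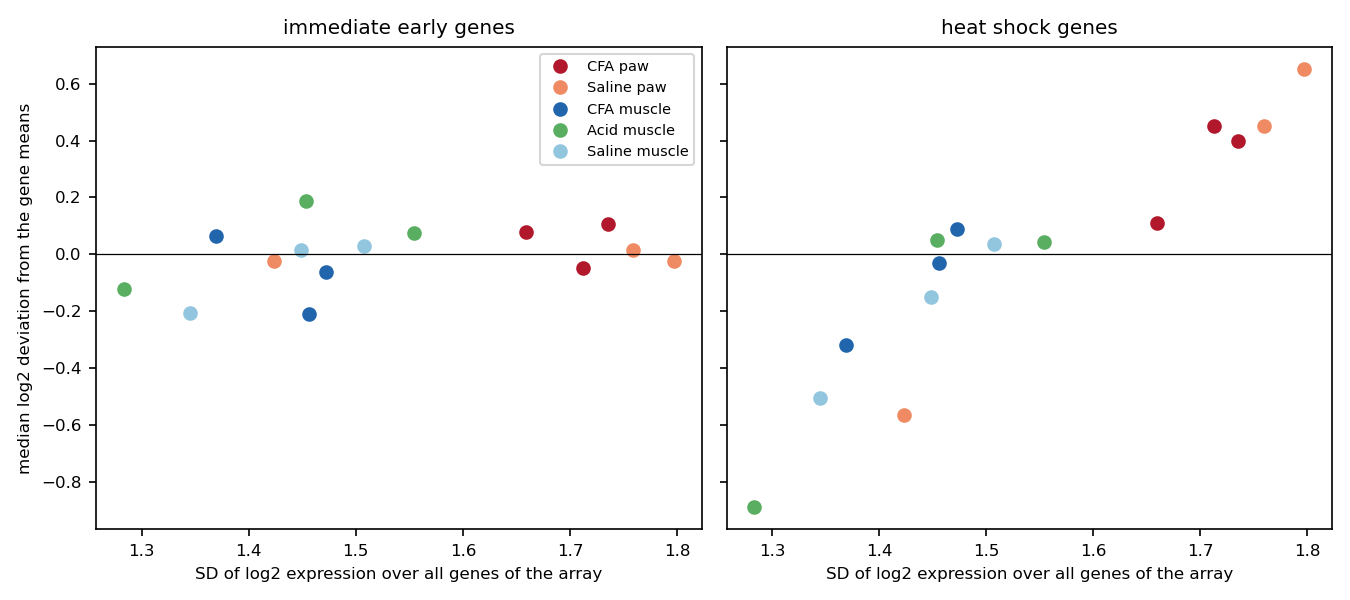
For each array, the SD of log2 expression over all genes is on the horizontal axis and the median deviation of the immediate early or heat shock genes from their gene means is on the vertical axis. The heat shock panel runs from -0.89 at an SD of 1.28 to 0.65 at 1.80, while the immediate early panel stays between -0.21 and 0.19.

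Other genes of the same pathways were read from lists outside the 42. Of 44 measured further immediate early and activity-induced genes, 5 were called higher in skin neurons and 0 lower in the averaged comparison, beside the 11.6% and 3.12% of all genes, with a median of 0.15. They were the growth factors' target Myc (1.88, SE 0.257), the insulin receptor substrate Irs2 (1.31), the neuronal genes Nrn1 (1.35) and Nptx2 (0.49), and Klf6 (0.95). Myc and Irs2 were called under all 3 other scalings, while Klf6 was 0.57 after quantile normalization and 0.056 with array SD as a covariate, neither called. Of 39 measured further chaperones, 4 were called higher and 0 lower, again beside 11.6% of all genes called higher, with a median of 0.19. Hspb1, the small heat shock protein Hsp27 that sensory neurons carry at high levels, differed by 1.56 (SE 0.191), Hspb6 by 0.96, the Hsp70-Hsp90 linker Stip1 by 0.80 and the synaptic vesicle chaperone Dnajc5 by 0.62. Stip1 and Dnajc5 turned to -0.056 and -0.035 with array SD as a covariate, while Hspb1 was 0.92 and called under all 3.

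Of 25 endoplasmic reticulum stress genes, Syvn1 (0.74), a ligase that marks misfolded proteins for decay, and Asns (0.71), which makes asparagine, were called higher and the chaperone Dnajc3 (-0.72) lower, beside 11.6% and 3.12% of all genes, with a median of 0.06. Asns turned to -0.094 with array SD as a covariate. Of 19 measured upstream factors and kinases of the immediate early response, 9 were called higher and 0 lower, beside 11.6% of all genes called higher, with a median of 0.36. They included the CREB coactivators Crtc1 (1.31), Crtc2 (1.52), Crebbp (1.07) and Ep300 (0.60), the calcium-dependent kinase Camk2a (1.12), the serum response factor partner Mrtfa (0.78), the factor Mef2d (0.94) and the kinases Map2k2 (0.52) and Rps6ka5 (0.48). All 9 remained positive after quantile normalization, after cyclic loess and with array SD as a covariate, and Crtc1 was called under all 3. In the 4 treatment comparisons and the difference of CFA effects, 0 genes of these lists were called, as were 0% of all genes.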

How the data were processed

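Each of the 15 arrays has a deposited log2 value per probe set, which was used unchanged. Per the submitters' processing notes the authors used RMA and Partek, with no version given, and the log base was taken from the range of the values. Every column was tied to 1 sample, and the titles gave the groups. Of 35556 probe sets, 21789 carried 1 gene symbol, and the probe set with the highest mean stood for a gene (999 genes had more than 1), which left 19938 genes. The group means of all 15 arrays were fitted with limma 3.58.1 in R 4.3.3 (10 residual degrees of freedom, prior 4.325), with two-sided p-values adjusted by Benjamini-Hochberg over all genes and a threshold of 0.05. The script was tested on simulated data. The number of arrays limits the precision, and the median SE of a difference between groups was 0.186.

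Members, lists and tests were chosen with earlier results of these data known. Array values are given for members past the threshold, for the 3 members with the smallest p of a comparison and for the 5 with the largest SD within groups. Hsp90aa1 and Fosb were added after their values were seen. Genes of the other lists are named where they passed. The alternatives were other scalings, array weights, an intensity trend, the array SD as a covariate, a filter on dim genes, the mean of a gene's probe sets, only the arrays compared, the replicate block, another threshold and leaving out each array. Promoter sequences are from RefSeq.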

Additional observations from a re-analysis of the deposited data

How the results depend on the processing

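In the averaged paw-minus-muscle comparison 20 of the 40 members had a difference of the other sign under quantile normalization (15), cyclic loess (14) or the array SD as a covariate (16). Jund, which turned to -0.074 and -0.064 under the first 2, was the single one of the 8 called members among them. The results followed under every alternative were 30 pairs, which are the members called in a comparison and the 3 with the smallest p of each. Of 13 pairs past the threshold, 100 of 130 calls were kept under alternatives other than leaving out an array and 94 of 126 when 1 array was left out. The averaged paw-minus-muscle comparison called 8 members, against 2 after quantile normalization, 18 with array weights, 5 with the array SD as a covariate (Bag3 higher, and Hspa1a, Hsph1, Hspd1 and Dnaja1 lower) and 5 to 15 when 1 array was left out, the highest when saline paw replicate 1 was left out and the lowest when replicate 2 or 3 of that group was. CFA paw against CFA muscle called 4 members, against 7 at a threshold of 0.1, 2 after quantile normalization, 13 with array weights, 1 with the array SD as a covariate, 12 when the fit held the compared arrays alone and 1 to 3 when 1 array was left out. Saline paw against saline muscle called 1 member, against 2 at a threshold of 0.1 and after quantile normalization or cyclic loess, 0 after median centring or when the fit held the compared arrays alone, 16 with array weights and 0 to 6 when 1 array was left out, 6 being without saline paw replicate 1. In CFA paw against CFA muscle the 4 main calls were all higher. There quantile normalization gave 1 higher and 1 lower, and array weights 9 and 4. The array SD as a covariate gave 0 higher and 1 lower, and the compared arrays alone 9 and 3. In saline paw against saline muscle the array SD as a covariate also gave 0 higher and 1 lower. Quantile normalization and cyclic loess each gave 1 higher and 1 lower in that comparison. The cause of these changes was not tested. The other 5 comparisons called 0 members under every alternative run.

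The replicate numbers were not taken as pairs, as no label ties a number to an animal or a day and arrays of the same number did not deviate together in every pair. With the replicate block 9 members were called in the averaged comparison (2601 genes), 4 in CFA paw against CFA muscle (1144 genes) and 1 in saline paw against saline muscle (316 genes). It called 0 members elsewhere. Npas4, Nr4a3 and Fosl1 lie near the dim limit. The 2 probe sets of Hspd1 disagreed, with -0.01 and 0.50 for CFA muscle against saline muscle and -0.32 and 0.39 for acid muscle against saline muscle. For the averaged paw-minus-muscle comparison they gave -0.08 and 0.07. The 2 probe sets of Dnaja1 also differed in sign for acid muscle against saline muscle, at -0.11 and 0.22. They gave 0.33 and 0.21 for the averaged comparison.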
